A study of Homo sapiens with 24 samples.

Results

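Epithelial cells hold on to each other through adherens junctions, desmosomes and tight junctions, and polarity complexes keep their apical and basal sides apart. The RNA levels of 36 genes for these structures were described in MCF-10A, an immortalised, non-tumorigenic human mammary epithelial line, before and after activation of the transcription factor MYC. They are 5 adherens junction genes, 11 desmosome genes, 10 tight junction genes, 9 polarity genes and EPCAM, chosen by symbol from the 60668 genes of the deposited table, and all 36 were present and passed the filter on low counts. One line, MCF-10A MYC-ER, carries MYC joined to an oestrogen receptor (ER) domain, a fusion that stays inactive until 4-hydroxytamoxifen (4-OHT) binds it. The other line is parental MCF-10A, labelled wild-type, which lacks the fusion and received 4-OHT in the same way. Both were grown in 3 dimensions on a laminin-rich gel (growth factor reduced Matrigel), and 1 µM 4-OHT was present for the last 0, 8, 24 or 48 h, with every culture collected together on day 5. Each of the 8 groups of line and time has 3 replicates, 24 libraries in all. What drives the fusion gene, whether the MYC-ER line is 1 clone and whether the 3 libraries of a group are the wells that were seeded in triplicate or separate cultures are not given in the sources used here, so p-values measure the spread between these samples, which may be technical.

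Classical cadherins bind their like on the next cell, and catenins tie them to actin. Desmosomes join the cells through desmogleins and desmocollins, which plakoglobin, plakophilins and plakins anchor to keratin filaments. Claudins and occludin seal the space between cells, and the PAR, Crumbs and Scribble complexes set where that seal lies. Basal and luminal mammary cells differ in which of these proteins they make, and MCF-10A cells are known for a largely basal pattern.

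Levels are given as CPM, counts per 1000000 after TMM scaling (a correction for library composition), always in the order of replicates 1, 2 and 3, and differences as log2 changes from edgeR's quasi-likelihood fit, with p-values adjusted (Benjamini-Hochberg) over all 22158 genes tested and a threshold of 0.05. "Rose" and "fell" are used where that threshold was passed. Library totals ran from 136860029 to 182438505 counts, a 1.33-fold range, and 3 counts, the limit that a count of 0 allows by counting error alone, are 0.0219 CPM in the smallest of them. The 23 libraries other than parental 0 h replicate 2 were most similar to a library of their own group, and that one was closest to parental 8 h replicate 2 (Spearman rho 0.988, against 0.987 for its own group). Across 9784 genes of at least 10 CPM, the deviation of a library from the mean of all libraries followed the GC content of the transcript with rho 0.609 in parental 0 h replicate 1, 0.176 in replicate 2 and 0.574 in replicate 3, against -0.401 to 0.083 in the other 21 libraries. Counts of members that rest on the parental 0 h libraries are therefore given with and without that trend. Exceptions are the 8 h interaction count and the counts of members that differed or changed by at least 2-fold, with counts drawn from them. For single parental changes the value without the trend is given where a call ended or the value moved by over 1.5 times. Summed over the marker list of basal mammary epithelium, all 6 genes of which were above 1 CPM in every group, untreated MYC-ER libraries had 14226 to 14673 CPM. After 8 h of 4-OHT the sum was 15307 to 17236 CPM. Later it was lower, 10618 to 11061 CPM after 24 h and 10542 to 11183 CPM after 48 h. The genes of the list did not fall together: KRT5 fell at 24 and 48 h (log2 -0.82 and -0.86). KRT14 (1.38 and 0.60), KRT17 (0.64 and 1.83), LAMB3 (1.51 and 1.63) and ITGB4 (0.70 and 0.81) rose, and TP63 did not pass at 24 or 48 h. At 8 h KRT5 (-0.33) and TP63 (-0.81) fell, while KRT14 (1.28), KRT17 (2.43), LAMB3 (3.29) and ITGB4 (1.11) rose. In parental cells the sum was 18740.4 to 30470.3 CPM over the 4 times. The part of that sum in the values of basal genes such as CDH3 and DSG3 was not tested. The endothelial list summed to at most 2.99 CPM and the leukocyte list to at most 9.03 CPM, mostly CD14, with CDH5 and CD3E at 0 in every library. In bulk RNA, fewer cells of a type and less RNA per cell cannot be told apart.

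After 8 h of 4-OHT in MYC-ER cells the genes moved both ways: 16 of the 36 rose and 14 fell, 30 in all, beside 67.6% of all genes (32.2% higher and 35.4% lower). At 24 h 13 rose and 14 fell, 27 in all, beside 61.6% of all genes (30.4% higher and 31.2% lower). At 48 h 12 rose and 7 fell, 19 in all, beside 44.1% of all genes (23.4% higher and 20.7% lower). Highly expressed genes pass more often: among the 9795 genes that averaged 10 CPM or more, 82.1%, 78.0% and 58.7% passed at 8, 24 and 48 h, and of the 30 members among them 27, 22 and 14. The 36 genes had a median log2 change of 0.19, -0.05 and 0.08 at 8, 24 and 48 h, against -0.10, -0.02 and 0.03 over all genes. Changes of at least 2-fold were seen for 8, 9 and 8 members, beside 34.7%, 27.5% and 13.4% of all genes. These comparisons share the MYC-ER 0 h libraries. With libraries scaled by their totals alone, 20 members were higher and 4 lower at 48 h, and the median over all genes was 0.19 in place of 0.03. With GC and length trends removed 29 members were called at 48 h, and 31 when only the groups compared were fitted. The 44.1% of all genes belongs to the main fit and is not a share to set beside these 2 counts. Mitochondrial genes took 9.24 to 9.71% of the counts in the MYC-ER 0 h libraries, the baseline here. In treated MYC-ER libraries they took 5.61 to 6.58% after 8 h, 6.34 to 6.65% after 24 h, and after 48 h between 6.57 and 6.78%. The part of this difference in the results was not tested. The heat map of log2 changes by line and time shows deep falls and strong rises among both the desmosome and the tight junction genes.

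**Figure D1:**
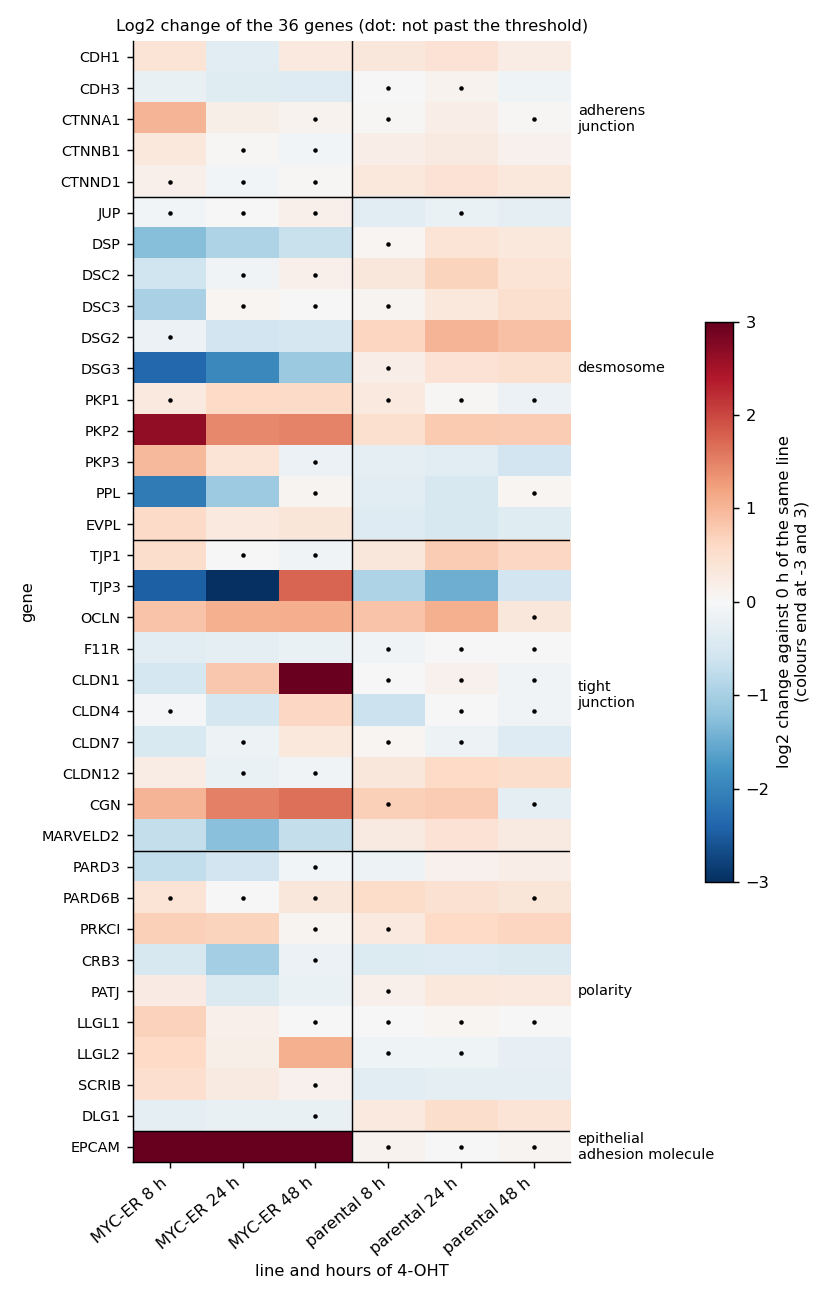
Log2 change against 0 h of the same line for the 36 genes (rows, by structure) at 8, 24 and 48 h of 4-OHT in MYC-ER and parental cells (columns), means of 3 replicates a group; colours end at -3 and 3, and a dot marks a change that did not pass the threshold. EPCAM was above 3 at all 3 MYC-ER times and passed at none of the parental times.

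EPCAM encodes a cell surface adhesion molecule that is high in luminal and low in basal mammary cells, and it lies at chr2:47369311-47387020 (RefSeq, GRCh38.p14, as are all positions below). In MYC-ER cells at 0 h its level was 2.16, 1.91 and 1.73 CPM. It was 26.3, 23 and 22.2 CPM at 8 h and 77.8, 77.3 and 72.3 CPM at 24 h. At 48 h it was 38.6, 39.8 and 38.3 CPM. No replicate of a treated group came near the 0 h range, and 24 h stood above both other times. The log2 change was 3.62 ± 0.084 (SE; BH-adjusted p = 3.09e-19) at 8 h, 5.29 ± 0.0894 (SE; BH-adjusted p = 1.07e-21) at 24 h and 4.33 ± 0.0861 (SE; BH-adjusted p = 8.09e-20) at 48 h, the last a 20.1-fold rise. From 24 to 48 h it fell by 0.96 on the log2 scale (adjusted p = 2.86e-10). In parental cells it stayed between 5.64 and 6.89 CPM over all 12 libraries, and no change passed (log2 0.10, -0.01 and 0.09; adjusted p = 0.358, 0.939 and 0.369). The MYC-ER change exceeded the parental one by 5.30 ± 0.114 (SE; BH-adjusted p = 1.58e-19) at 24 h, an interaction term of the same fit. Per kb of transcript, EPCAM went from 1.12 ± 0.127 CPM (SD, n = 3) at 0 h, 30th of the 36 genes, to 43.9 ± 1.76 at 24 h, when it was 10th. The luminal marker list (KRT8, KRT18, KRT19, ESR1, PGR, GATA3 and FOXA1) summed to 229.6 to 248 CPM before 4-OHT, 615 to 659 after 8 h, 395 to 406 after 24 h and 445 to 472 after 48 h. KRT18 made most of the 8 h sum (mean 503 CPM, against 97 at 0 h). FOXA1 was called higher at all 3 times, from 0.139, 0.414 and 0.28 CPM at 0 h to 2.76, 2.87 and 2.91 CPM at 8 h. GATA3 was called lower at 8 and 24 h, with 19.5, 18.5 and 18.6 CPM at 0 h and 8.82, 8.46 and 8.32 CPM at 8 h. KRT8 passed at 24 and 48 h and not at 8 h (means 121 CPM at 0 h, 122 at 8 h and 219 at 48 h). KRT19 passed at no time and PGR was at 0 in every library. ESR1 was called lower at 8 and 24 h and was at most 0.557 CPM in any library. The part of luminal cells in the EPCAM result was not tested.

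Among the adherens junction genes, 3 of 5 rose and 1 fell at 8 h, 1 rose and 2 fell at 24 h, and 1 rose and 1 fell at 48 h. Of all genes 67.6%, 61.6% and 44.1% were called at these times. The clearest change was in CTNNA1, which encodes alpha-catenin, the link between cadherin and actin. It was at 333, 351 and 336 CPM at 0 h. At 8 h the replicates read 693, 669 and 693 CPM. At 24 h they had come back to 403, 378 and 379 CPM, and at 48 h to 373, 365 and 364 CPM. The rise thus stood apart at 8 h (log2 1.01 ± 0.050 SE, BH-adjusted p = 7.75e-14), was small at 24 h (0.19 ± 0.0496 SE, BH-adjusted p = 0.00261) and did not pass at 48 h (0.11 ± 0.0496 SE, BH-adjusted p = 0.0759). CDH3, the P-cadherin of basal cells, fell at all 3 times, from 433, 444 and 433 CPM to 373, 359 and 389 CPM at 8 h and 338, 331 and 334 CPM at 48 h, with log2 changes of -0.22 ± 0.0462 (SE; BH-adjusted p = 2.01e-04), -0.36 ± 0.0463 (SE; BH-adjusted p = 6.44e-07) and -0.38 ± 0.0463 (SE; BH-adjusted p = 5.59e-07). CDH1, the E-cadherin that holds epithelial sheets together, went up and down: 137, 144 and 138 CPM at 0 h, 189, 181 and 190.3 CPM at 8 h, 119, 109 and 112 CPM at 24 h and 175, 169 and 171 CPM at 48 h. All 4 ranges were apart, and the changes passed each time, at 0.42 ± 0.0615 (SE; BH-adjusted p = 3.36e-06), -0.31 ± 0.0616 (SE; BH-adjusted p = 1.78e-04) and 0.30 ± 0.0615 (SE; BH-adjusted p = 4.43e-04). Per kb, CDH1 made 24.4% ± 0.192 (SD, n = 3) of CDH1 plus CDH3 at 0 h. Its part was 33.5% ± 0.422 at 8 h and had gone back to 25.1% ± 0.417 by 24 h before reaching 34.1% ± 0.198 after 48 h. The genes are neighbours on chromosome 16, CDH3 at chr16:68645310-68733771 and CDH1 at chr16:68737292-68835537. CTNNB1, beta-catenin, rose by log2 0.31 at 8 h and passed at neither later time, while CTNND1, p120-catenin, passed at none of the 3 (adjusted p = 0.0745, 0.28 and 0.651).

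Desmosome genes split into members that fell deeply and others that rose. At 8 h 3 of 11 rose and 5 fell, at 24 h 4 rose and 4 fell, and at 48 h 3 rose and 3 fell. Beside them, 67.6%, 61.6% and 44.1% of all genes were called at these times. DSG3, the desmoglein of basal stratified epithelium, was the second most abundant of the 36 genes per kb in untreated MYC-ER cells, after DSP. Its replicates read 978, 1034 and 950.0 CPM at 0 h. At 8 h they were 188, 191 and 196 CPM. They were 266, 252 and 259.9 CPM at 24 h and 455, 451 and 457 CPM at 48 h. The fall was 5.16-fold at 8 h and part of it was made up by 48 h, with no overlap between any of the 4 groups. Log2 changes were -2.37 ± 0.109 (SE; BH-adjusted p = 2.29e-14), -1.93 ± 0.107 (SE; BH-adjusted p = 7.37e-13) and -1.12 ± 0.105 (SE; BH-adjusted p = 1.31e-08), and the rise from 24 to 48 h was 0.81 ± 0.104 (SE; BH-adjusted p = 9.14e-07). DSP encodes desmoplakin, the plakin that binds keratin, and went from 3058, 3264 and 2921 CPM to 1236, 1263 and 1298 CPM at 8 h. It was 1964, 1909.9 and 1924 CPM at 48 h, still below every 0 h replicate (log2 -1.28 ± 0.098 SE, BH-adjusted p = 1.25e-10 at 8 h and -0.67 ± 0.0969 SE, BH-adjusted p = 6.16e-06 at 48 h). PPL, the plakin periplakin, took another course, with 193, 204 and 189.6 CPM at 0 h, 42.7, 43.6 and 48.7 CPM at 8 h, 91.1, 93 and 91 CPM at 24 h and 209, 208 and 203 CPM at 48 h. It fell by 2.12 on the log2 scale at 8 h (adjusted p = 8.28e-15), and at 48 h the replicates overlapped those of 0 h (0.08 ± 0.088 SE, BH-adjusted p = 0.494).

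PKP2, a plakophilin that anchors desmosomal cadherins and is the main one of heart and simple epithelia, had the largest rise of the desmosome genes at each time. It was 30.1, 30.3 and 30.3 CPM at 0 h. At 8 h it was 185, 188 and 203 CPM, and later 90.2, 79.1 and 77.3 CPM at 24 h and 86.7, 88.2 and 80.5 CPM at 48 h. Every treated replicate was above every untreated one, and the 8 h replicates were far above those at later times. The log2 changes were 2.67 ± 0.098 (SE; BH-adjusted p = 4.96e-16), 1.44 ± 0.0943 (SE; BH-adjusted p = 1.13e-11) and 1.49 ± 0.0944 (SE; BH-adjusted p = 2.18e-11). PKP3, the plakophilin with the highest level per kb here, rose from 162, 144 and 151 CPM to 303, 287 and 307 CPM at 8 h (log2 0.97 ± 0.10 SE, BH-adjusted p = 1.73e-08) and at 48 h was 142, 138 and 129.7 CPM, below the 0 h range without passing (-0.16 ± 0.0992 SE, BH-adjusted p = 0.195). PKP1, the plakophilin of suprabasal skin, was at 0.70 to 1.5 CPM in all MYC-ER libraries. Its rises at 24 h (log2 0.59) and 48 h (0.58) were lost without MYC-ER 0 h replicate 1 (0.45 and 0.44, adjusted p = 0.0584 and 0.0883). Among the 3 plakophilins, PKP2 made 11.4% ± 0.613 (SD, n = 3) of the summed level per kb at 0 h and 29.5% ± 0.913 at 8 h, while the sum went from 61.6 ± 3.16 to 151 ± 5.31 CPM per kb.

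The other desmosomal cadherins changed less than DSG3. DSC3, the desmocollin of basal layers, fell only at 8 h among the times tested, from 341, 367 and 329 CPM to 174, 181 and 175 CPM, and was back at 379, 344 and 357 CPM by 24 h (log2 -0.97 ± 0.111 SE, BH-adjusted p = 8.64e-08 and 0.06 ± 0.11 SE, BH-adjusted p = 0.664). DSC2 fell at 8 h by 0.60 on the log2 scale (adjusted p = 1.38e-05), and DSG2, the desmoglein of simple epithelia, fell at 24 h (-0.57 ± 0.132 SE, BH-adjusted p = 8.24e-04) and 48 h (-0.49 ± 0.132 SE, BH-adjusted p = 0.00417). These 4 genes lie together on chromosome 18, DSC3 and DSC2 between positions 30989365 and 31102421 and DSG3 and DSG2 between 31447741 and 31549008. Their summed level per kb was 306 ± 14.9 CPM (SD, n = 3) at 0 h, dropped to 126 ± 2.31 at 8 h, and then read 153 ± 7.06 after 24 h and 189 ± 0.707 after 48 h. DSG3 made 58.5% ± 0.32 of that sum at 0 h and 27.4% ± 0.65 at 8 h, when DSG2 held 48.6% ± 0.52. At 24 h DSC3 had the largest share, 33.8% ± 0.25, and at 48 h DSG3 again, 43.5% ± 0.374. EVPL, the plakin envoplakin, rose at all 3 times (log2 0.56, 0.30 and 0.36) while its partner PPL fell at 8 and 24 h. JUP, plakoglobin, which desmosomes and adherens junctions share, passed at none of them: it was 443, 448 and 453 CPM at 0 h and 424, 398 and 442 CPM at 8 h, with log2 changes of -0.09, -0.01 and 0.15 (adjusted p = 0.354, 0.916 and 0.141). With each library's GC and length trends removed JUP did pass, at -0.15, 0.16 and 0.20. A list of 4 further desmosome genes (DSG1, DSG4, DSC1 and PERP) had 3 that fell and none that rose at 8 h, and at each later time 2 that fell and none that rose, with a median log2 change of -1.81 at 8 h. Beside these counts, 35.4%, 31.2% and 20.7% of all genes were lower at 8, 24 and 48 h. The fibroblast marker list (DCN, LUM, PDGFRB, COL1A1 and COL1A2) summed to 369.6 to 377 CPM before 4-OHT, 102 to 109 after 8 h, 79.9 to 91.8 after 24 h and 121 to 130.2 after 48 h, nearly all of it COL1A1 and DCN, with COL1A2 at 0 in all MYC-ER libraries. Its part in the desmosomal result was not tested.

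**Figure D2:**
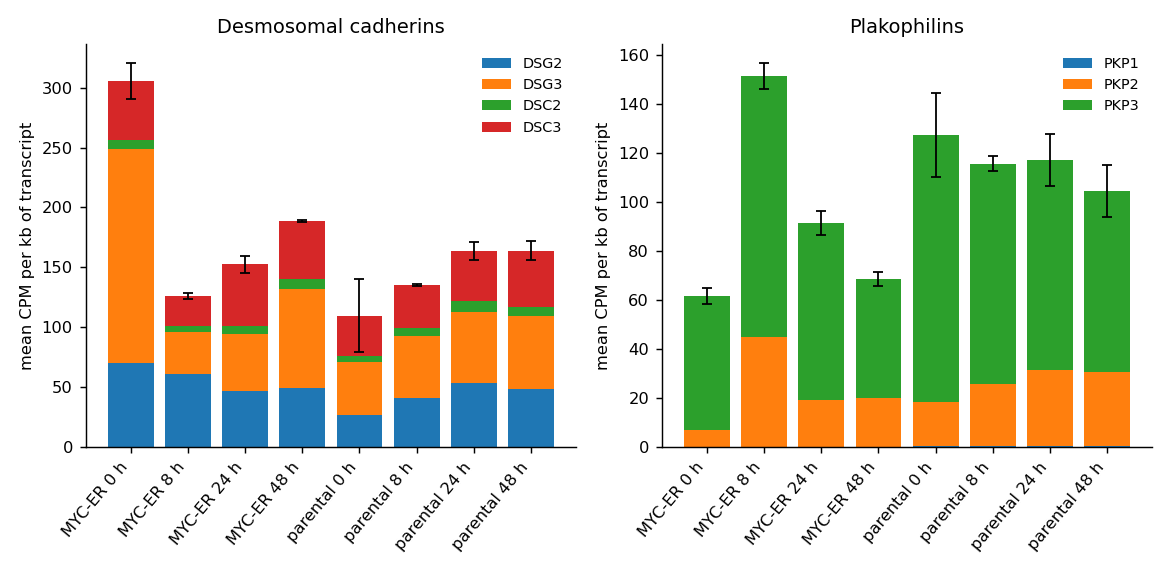
Mean level per kb of transcript of the 4 desmosomal cadherins (left) and the 3 plakophilins (right), stacked, in each group of line and time; error bars are the SD of the sum over 3 replicates. In MYC-ER cells the cadherin sum went from 306 at 0 h to 126 at 8 h as the DSG3 part shrank, and the plakophilin sum from 61.6 to 151.

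Of the 10 tight junction genes 4 rose and 5 fell at 8 h, and 3 rose and 4 fell at 24 h. At 48 h 6 rose and 2 fell. Of all genes 32.2%, 30.4% and 23.4% were higher at these times and 35.4%, 31.2% and 20.7% lower. No difference from these shares was tested. The median log2 change at 48 h was 0.47 for the tight junction genes against 0.03 over all genes. CLDN1, the claudin that seals the skin barrier, first fell and then rose. Its replicates were 4.8, 4.88 and 5.75 CPM at 0 h and 4.04, 3.29 and 3.32 CPM at 8 h. They were 9.51, 8.74 and 8.89 CPM at 24 h and 39.3, 41.9 and 39.7 CPM at 48 h. The 4 ranges did not overlap, and the log2 changes were -0.54 ± 0.0967 (SE; BH-adjusted p = 4.58e-05), 0.81 ± 0.0942 (SE; BH-adjusted p = 1.25e-07) and 2.97 ± 0.0987 (SE; BH-adjusted p = 3.98e-16). In parental cells CLDN1 stayed between 21.5 and 28.6 CPM in the 12 libraries and passed at no time, so that MYC-ER cells were below the parental range at 0, 8 and 24 h and above it at 48 h. RefSeq extends the gene CLDN16 over CLDN1, and whether the counting separated them is not given in the sources used here. CLDN16 was called lower at 8 h with overlapping replicates (log2 -5.05 ± 1.48 SE) and higher at 48 h (2.43 ± 0.756 SE). It did not pass at 24 h. The part of this overlap in the CLDN1 values was not tested.

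TJP3 encodes ZO-3, a scaffold under claudins, and its level was low. It read 2.52, 2.64 and 2.62 CPM at 0 h and 0.376, 0.475 and 0.58 CPM at 8 h. At 24 h it read 0.314, 0.322 and 0.237 CPM, and at 48 h 8.69, 9.1 and 8.28 CPM. It thus fell at the early times and ended above every untreated replicate, with log2 changes of -2.44 ± 0.195 (SE; BH-adjusted p = 2.56e-10), -3.15 ± 0.202 (SE; BH-adjusted p = 8.27e-12) and 1.74 ± 0.182 (SE; BH-adjusted p = 6.43e-08). From 24 to 48 h the rise was 29.7-fold, the largest of the 36 genes in that comparison. MARVELD2, tricellulin, which closes the corners where cells meet, fell at all 3 times, from 32.6, 34 and 31.1 CPM at 0 h to 14.8, 12.7 and 13.4 CPM at 24 h and 19.6, 21.1 and 19 CPM at 48 h (log2 -0.71 ± 0.0817 SE, BH-adjusted p = 9.56e-08, -1.26 ± 0.0827 SE, BH-adjusted p = 1.30e-11 and -0.71 ± 0.0816 SE, BH-adjusted p = 2.73e-07). OCLN, occludin, was rare, 1.88, 1.84 and 1.56 CPM at 0 h, and rose to 3.22, 2.77 and 3.6 CPM at 8 h and 4.02, 3.45 and 3.64 CPM at 24 h (1.07 ± 0.181 SE, BH-adjusted p = 2.32e-05). A pseudogene, OCLNP1, shares its sequence, so that value is uncertain. CGN, cingulin, which ties the junction to myosin, was rarer still, 0.145, 0.465 and 0.508 CPM at 0 h, 0.832, 0.568 and 0.86 CPM at 8 h (1.01 ± 0.295 SE, BH-adjusted p = 0.00461) and 1.24, 1.01 and 1.25 CPM at 48 h (1.65 ± 0.295 SE, BH-adjusted p = 9.29e-05). CLDN7, common in simple epithelia, went from 32.2, 31.7 and 32.1 CPM to 24.1, 21.8 and 24.3 CPM at 8 h and 39.8, 39.4 and 39.4 CPM at 48 h, a fall of 0.45 and then a rise of 0.31 on the log2 scale (adjusted p = 3.07e-06 and 5.98e-04). F11R, the adhesion molecule JAM-A, fell by 0.33, 0.30 and 0.21 on the log2 scale, and the last was not called when libraries were scaled by their totals (-0.05). TJP1, the scaffold ZO-1, rose at 8 h (0.54 ± 0.0969 SE, BH-adjusted p = 4.52e-05) and passed at neither later time. CLDN12, a claudin without a PDZ-binding end, rose by 0.23 at 8 h, a call lost without any 1 of MYC-ER 0 h replicates 1, 2 and 3 and 8 h replicates 1 and 2 (log2 0.20 to 0.24). CLDN4, a barrier claudin, was at 0.202 to 0.733 CPM in MYC-ER cells. Its fall at 24 h (-0.52) was lost without any 1 of 0 h replicates 1, 2 and 3 and 24 h replicates 2 and 3 (-0.38 to -0.56), and its rise at 48 h (0.63) without 0 h replicate 1 or 2 or 48 h replicate 3 (0.39 to 0.62).

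**Figure D3:**
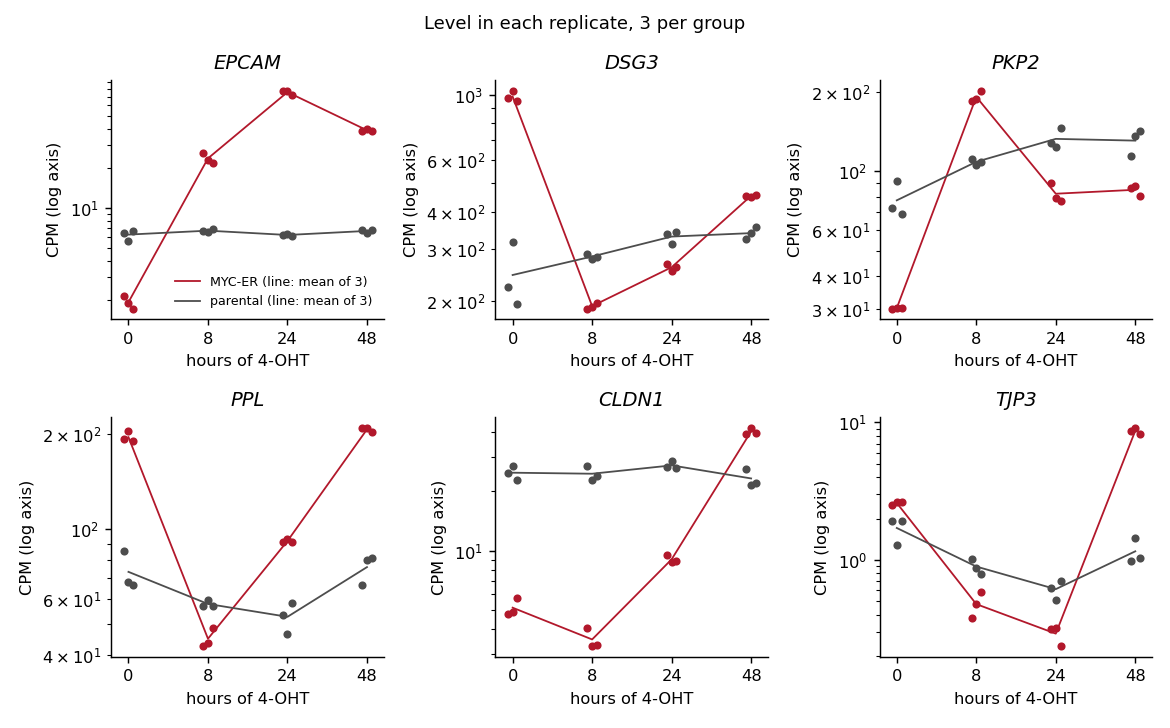
CPM (log axis) of 6 genes in every replicate (points) and the mean of 3 (lines) over 0, 8, 24 and 48 h of 4-OHT, in MYC-ER (red) and parental (grey) cells. In MYC-ER cells EPCAM, CLDN1 and TJP3 end above their 0 h level, DSG3 and PPL dip at 8 h, and PKP2 peaks at 8 h.

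Of the 9 polarity genes 5 rose and 3 fell at 8 h, 4 rose and 4 fell at 24 h, and 1 rose and 1 fell at 48 h, while the share of all genes called went from 67.6% to 61.6% and 44.1%. PARD3, the PAR-3 scaffold at the apical junction, fell from 79.6, 84.5 and 76.8 CPM at 0 h to 48.9, 48 and 48.4 CPM at 8 h. At 48 h it was 76.5, 74.2 and 75.6 CPM, just under the 0 h replicates (log2 -0.73 ± 0.0517 SE, BH-adjusted p = 3.61e-11 and -0.09 ± 0.0513 SE, BH-adjusted p = 0.17). PRKCI, the atypical protein kinase C that PAR-3 and PAR-6 hold, went the other way, from 53.9, 55.4 and 54.9 CPM at 0 h to 86.9, 94.1 and 87.1 CPM at 8 h, 94.8, 84.6 and 82.8 CPM at 24 h and 57.7, 57.5 and 58.6 CPM at 48 h (log2 0.71 ± 0.109 SE, BH-adjusted p = 6.21e-06 and 0.08 ± 0.109 SE, BH-adjusted p = 0.583). CRB3, the Crumbs protein of the apical membrane, was 15.1, 13.7 and 14.2 CPM at 0 h. It was 8.33, 6.52 and 6.45 CPM at 24 h and 13, 12.5 and 12.4 CPM at 48 h, a dip of -1.01 ± 0.108 (SE; BH-adjusted p = 3.68e-08) at 24 h with no call at 48 h (-0.18 ± 0.107 SE, BH-adjusted p = 0.174). Its partner PATJ, a scaffold, rose at 8 h by 0.25 and then fell by 0.44 at 24 h on the log2 scale, and the call at 48 h (-0.21 ± 0.0713 SE, BH-adjusted p = 0.0235) was lost without MYC-ER 0 h replicate 2 (-0.15, adjusted p = 0.138) and without 48 h replicate 2 or 3 (-0.20 each). LLGL2, a basolateral polarity protein of the Lgl family, rose at every time and most at 48 h, from 33.8, 32.6 and 34 CPM at 0 h to 48.3, 50.9 and 52.9 CPM at 8 h, 36.1, 39.1 and 38.4 CPM at 24 h and 71.1, 70.5 and 69.5 CPM at 48 h. The 4 ranges were apart, and the changes were 0.60 ± 0.0571 (SE; BH-adjusted p = 4.92e-09), 0.18 ± 0.057 (SE; BH-adjusted p = 0.0101) and 1.07 ± 0.0573 (SE; BH-adjusted p = 1.28e-12). Its relative LLGL1 rose at 8 h (0.69 ± 0.0593 SE, BH-adjusted p = 8.77e-10) and was at 51.4, 50.9 and 48.3 CPM at 48 h against 52.1, 48.1 and 48.8 CPM at 0 h, with no call. Its small rise at 24 h (0.16) was lost without MYC-ER 0 h replicate 2 or 3 or 24 h replicate 1 (0.13 to 0.15). SCRIB, the basolateral scaffold Scribble, rose by 0.51 at 8 h and 0.27 at 24 h, and DLG1, its partner, fell by 0.28 and 0.22, the first lost without MYC-ER 0 h replicate 2 (-0.23) and the second without any 1 of 0 h replicates 1 and 2 and 24 h replicates 1, 2 and 3 (-0.17 to -0.23). PARD6B, PAR-6, stayed at 1.64 to 2.92 CPM with no call, though at 8 h it passed without MYC-ER 8 h replicate 3 (log2 0.50 against 0.40). Pseudogene copies of CTNNA1, PKP2, TJP1, CLDN7, CRB3, PRKCI and PARD6B are annotated, and how reads that match several places were counted is not given in the sources used here.

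Upstream sequence was looked at for the letters that MYC and the E-cadherin repressors are known to bind. Of the 36 genes, 23 had an entry in a RefSeq promoter table, with 38 start sites between them. CDH1, EPCAM, PKP2 and SCRIB were among those without an entry, so their promoters were not looked at. The canonical E-box CACGTG was found in the 250 bases before 4 of these 38 starts (10.5%), against 6.3% of 35116 starts in the table. The E2-box CACCTG or its reverse complement CAGGTG was found before 12 (31.6%), against 17.5%. Starts of 1 gene can share sequence, and a match is a description, not a binding site. The upstream 250 bases are shown 5′ to 3′ for the desmoglein with the deepest fall, the claudin with the late rise and CRB3, whose window held 1 CACGTG and 5 E2-boxes; capitals mark those matches, which the first 2 windows do not have:
DSG3, chr18:31447491-31447740, plus strand: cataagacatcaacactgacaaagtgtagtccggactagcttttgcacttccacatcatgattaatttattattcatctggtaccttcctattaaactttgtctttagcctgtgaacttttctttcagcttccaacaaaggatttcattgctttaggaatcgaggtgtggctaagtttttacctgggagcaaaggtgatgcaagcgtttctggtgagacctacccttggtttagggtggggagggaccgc
CLDN1, chr3:190322447-190322696, minus strand: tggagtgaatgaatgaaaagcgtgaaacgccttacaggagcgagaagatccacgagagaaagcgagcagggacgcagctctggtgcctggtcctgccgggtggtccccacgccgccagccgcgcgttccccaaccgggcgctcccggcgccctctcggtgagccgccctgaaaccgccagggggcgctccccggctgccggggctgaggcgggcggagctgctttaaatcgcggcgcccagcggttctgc
CRB3, chr19:6464021-6464270, plus strand: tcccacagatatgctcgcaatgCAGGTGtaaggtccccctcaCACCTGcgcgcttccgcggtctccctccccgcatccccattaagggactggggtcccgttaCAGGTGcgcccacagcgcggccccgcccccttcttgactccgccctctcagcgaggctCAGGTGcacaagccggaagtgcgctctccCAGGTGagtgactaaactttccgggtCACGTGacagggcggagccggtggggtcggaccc
In the CRB3 window the CACGTG begins 34 bases before the start. That window lies inside the annotated gene (chr19:6463777-6467221), before a start downstream of the gene's first base. The DSG3 and CLDN1 windows end next to the first base of their genes.

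Step by step, 9 members rose and 18 fell from 8 to 24 h in MYC-ER cells, beside 55.5% of all genes (28.4% higher and 27.1% lower), and 14 rose and 5 fell from 24 to 48 h, beside 53.7% of all genes (28.2% higher and 25.5% lower). The first split was 14 higher and 11 lower with libraries scaled by their totals and 10 and 13 with upper quartile scaling. The second was 17 and 3 under both. With TMM scaling all 5 adherens junction genes fell from 8 to 24 h, CTNNA1 most (-0.82 ± 0.0499 SE, BH-adjusted p = 5.16e-12). When counts are divided by library totals alone, CDH3 is higher in every 24 h replicate than in every 8 h replicate. The CTNND1 replicates of the 2 times then overlap. The fall of CDH3 and CTNND1 thus depends on the scaling. By library totals CTNNA1, CDH1 and CTNNB1 are still lower in every 24 h replicate than in every 8 h replicate. Of the 30 members called at 8 h, 23 had a smaller change at 48 h, 14 were not called there and 4 had turned around (PATJ, CLDN1, CLDN7 and TJP3). Those 30 were chosen by their 8 h call, a choice that favours smaller changes at another time. The median size of the log2 change over all genes was also smaller, 0.79 at 8 h and 0.36 at 48 h. Of the 36, 11 were called in 1 direction at all 3 times: CGN, EPCAM, EVPL, LLGL2, OCLN and PKP2 rose, and CDH3, DSG3, DSP, F11R and MARVELD2 fell. Matching shares of all genes were not counted, so neither result sets the members apart from other genes.

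The lines already differed before 4-OHT. At 0 h MYC-ER cells had more RNA of 16 members and less of 15, beside 64.3% of all genes (31.6% higher and 32.7% lower), and 11 differed by at least 2-fold, beside 28.6%. DSG3 was 987 ± 42.8 CPM (SD, n = 3) in MYC-ER and 244 ± 63.2 in parental cells, with parental replicates at 223, 315 and 194 CPM (log2 2.02 ± 0.108 SE, BH-adjusted p = 4.03e-13). PPL, DSG2 and DSP were also higher in MYC-ER, by 1.42, 1.40 and 1.06 on the log2 scale. CLDN1 was lower, 4.8, 4.88 and 5.75 CPM against 24.9, 26.8 and 22.9 CPM (-2.27 ± 0.0965 SE, BH-adjusted p = 7.41e-15). So were EPCAM (-1.70), PKP1 (-1.41), PKP2 (-1.36), CLDN4 (-1.27), LLGL2 (-1.15) and PKP3 (-1.0). At 48 h 10 members were higher and 10 lower, beside 56.7% of all genes (27.3% higher and 29.4% lower); that split was 14 and 8 with libraries scaled by their totals and 13 and 8 with upper quartile scaling. Of the 11 members 2-fold apart at 0 h, 9 were closer at 48 h, DSG2 and DSP had no call left (0.03 ± 0.132 SE, BH-adjusted p = 0.858 and 0.08 ± 0.0965 SE, BH-adjusted p = 0.515), and EPCAM, CLDN1 and LLGL2 were called in the opposite direction (2.54, 0.79 and 0.17). PPL kept its distance (1.45) and TJP3 was further apart, 8.69, 9.1 and 8.28 CPM against 0.976, 1.45 and 1.04 CPM (2.91 ± 0.191 SE, BH-adjusted p = 2.64e-11). The 11 members were chosen by a large difference at 0 h, a choice that favours a smaller one at 48 h. The median size of the line difference over all genes was also smaller, 0.69 at 0 h and 0.52 at 48 h. Matching shares of all genes were not counted. With GC and length trends removed, 11 members were higher and 18 lower at 0 h, the difference in DSP was 0.66 in place of 1.06, and the difference in DSC3 (log2 0.56) was no longer called (0.07).

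**Figure D4:**
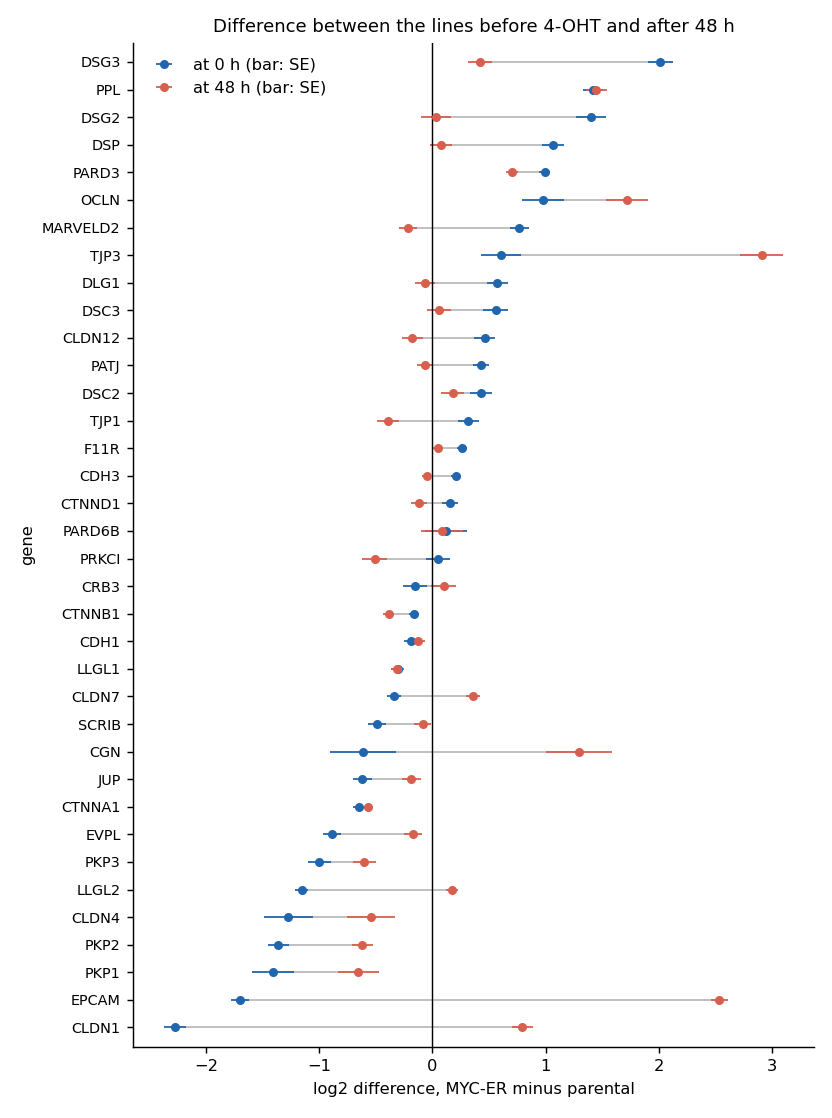
Log2 difference between MYC-ER and parental cells (3 replicates each) for the 36 genes before 4-OHT (blue) and after 48 h (red), with SE bars and genes in the order of the 0 h difference. DSG3 moves from 2.02 to 0.42, and CLDN1 and EPCAM cross from below to above 0.

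In parental cells under 4-OHT the changes were smaller. At 8 h 12 members were higher and 9 lower than at 0 h, beside 31.0% of all genes (15.0% higher and 16.0% lower). At 24 h it was 20 and 6, beside 42.9% of all genes (21.2% higher and 21.7% lower), and at 48 h 16 and 9, beside 40.5% of all genes (20.4% higher and 20.1% lower). Only DSG2, OCLN and TJP3, all at 24 h, passed with at least 2-fold, beside 3.98% of all genes at that time. These changes ran along GC content: across the 36 genes Spearman's rho of the log2 change with transcript GC was -0.71, -0.79 and -0.84 at 8, 24 and 48 h, beside -0.64, -0.68 and -0.67 over 9784 genes, while in MYC-ER cells it was 0.12, -0.01 and 0.22. Genes of 1 library share its GC trend, so these values are descriptions without a test. With the GC trend removed 11 members were higher and 2 lower at 8 h, 23 and 1 at 24 h, and 13 and 2 at 48 h. With GC and length trends removed the splits were 9 and 6, 11 and 6, and 6 and 9. Without parental 0 h replicate 1, 10 members were called at 8 h, and without replicate 2, 26. When only the groups compared were fitted, 4, 16 and 7 members were called at 8, 24 and 48 h. The shares of all genes given above belong to the main fit alone. Upper quartile scaling gave 17 higher and 9 lower at 24 h. DSG2 went from 138, 213 and 112 CPM at 0 h to 308, 304 and 320.0 CPM at 24 h, with replicate 2 at 0 h nearest the treated libraries (log2 1.01 ± 0.133 SE, BH-adjusted p = 7.29e-06, and 0.65 with GC and length trends removed). PKP2 read 72.4, 91.5 and 68.8 CPM at 0 h and 128, 124 and 146 CPM at 24 h (0.78 ± 0.0925 SE, BH-adjusted p = 2.62e-06). TJP3 fell from 1.92, 1.29 and 1.91 CPM to 0.627, 0.508 and 0.705 CPM at 24 h (-1.47 ± 0.188 SE, BH-adjusted p = 5.22e-06). OCLN rose from 0.70, 1.27 and 0.714 CPM to 2.07, 1.58 and 1.96 CPM at 24 h (1.06 ± 0.185 SE, BH-adjusted p = 1.04e-04, and 0.59 with GC and length trends removed).

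**Figure D5:**
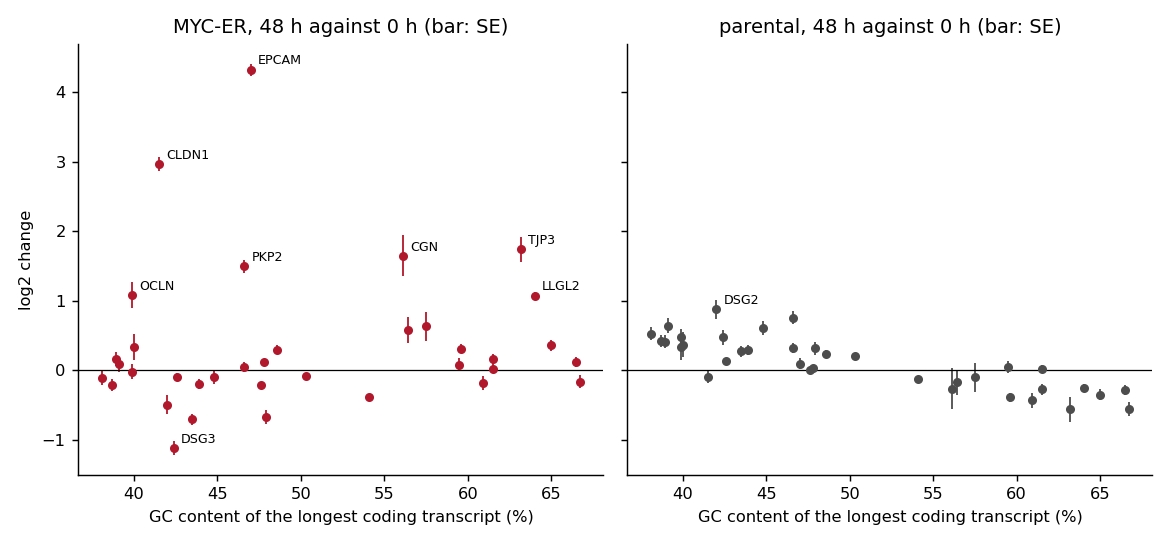
Log2 change from 0 to 48 h of 4-OHT (SE bars) of the 36 genes against the GC content of the longest coding transcript, in MYC-ER (left) and parental cells (right). In parental cells the values go down from low to high GC (rho -0.84), and in MYC-ER cells they spread widely with no such slope (rho 0.22).

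Whether the response differed between the lines was tested by the interaction, the MYC-ER change minus the parental one. It passed for 23 members at 8 h (9 more positive and 14 more negative in MYC-ER), beside 55.2% of all genes (27.3% higher and 27.8% lower). It passed for 25 at 24 h (7 and 18), beside 54.5% of all genes (27.7% higher and 26.8% lower), and for 28 at 48 h (13 and 15), beside 45.0% of all genes (23.6% higher and 21.4% lower). At 48 h the split was 16 and 11 with libraries scaled by their totals and 17 and 6 with GC and length trends removed. At 24 h it was 12 and 15 with those trends removed. After EPCAM, the largest differences at 8 h were in DSG3 (-2.58 ± 0.149 SE, BH-adjusted p = 3.17e-12), PKP2 (2.18 ± 0.132 SE, BH-adjusted p = 6.47e-12), PPL (-1.78 ± 0.126 SE, BH-adjusted p = 8.46e-11) and TJP3 (-1.51 ± 0.264 SE, BH-adjusted p = 4.35e-05). At 48 h they were in CLDN1 (3.07 ± 0.132 SE, BH-adjusted p = 7.02e-14), TJP3 (2.31 ± 0.256 SE, BH-adjusted p = 2.88e-07), CGN (1.91 ± 0.415 SE, BH-adjusted p = 7.16e-04) and DSG3 (-1.59 ± 0.148 SE, BH-adjusted p = 1.99e-08).

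Some members passed in opposite directions in the lines: 6 at 8 h, 11 at 24 h and 9 at 48 h. With the GC trend removed these counts were 2, 10 and 5, and with GC and length trends removed 3, 5 and 5. Fitted on the compared groups alone they were 0, 6 and 4, and they were 2, 10 and 8 without parental 0 h replicate 1, 9, 11 and 9 without replicate 2, and 3, 9 and 8 without replicate 3. MARVELD2 was on the list at each time. In parental cells it read 19, 21.1 and 17.3 CPM at 0 h and 25, 28.5 and 24.7 CPM at 24 h (log2 0.44 ± 0.0815 SE, BH-adjusted p = 1.66e-04, and 0.18 and not called with GC and length trends removed). MYC-ER cells went down, and the difference at 24 h was -1.70 ± 0.116 (SE; BH-adjusted p = 4.89e-11). DSG3 rose in parental cells from 223, 315 and 194 CPM at 0 h to 336, 311 and 343 CPM at 24 h (0.43 ± 0.104 SE, BH-adjusted p = 0.00182). That call was lost with GC and length trends removed (0.093) or only the groups compared fitted (0.44, adjusted p = 0.0855). Replicate 2 at 0 h lay within the 24 h range. DSP went from 1538, 1729.7 and 1155 CPM to 1947, 1777 and 2107 CPM at 24 h (0.40 ± 0.0966 SE, BH-adjusted p = 0.00197). That call was lost in the same fits (0.034, and 0.40 with adjusted p = 0.0819). CDH1 read 156, 179 and 144 CPM at 0 h and 216, 207 and 227 CPM at 24 h (0.44 ± 0.0615 SE, BH-adjusted p = 1.35e-05, and 0.25 with GC and length trends removed), against a fall in MYC-ER cells. EVPL fell in parental cells, from 121, 88.1 and 104 CPM to 80.4, 69.4 and 75.2 CPM at 24 h (-0.48 ± 0.0787 SE, BH-adjusted p = 6.27e-05, and -0.051 and not called with the GC trend removed), with replicate 2 the lowest at 0 h. LLGL2 fell by 0.26 on the log2 scale at 48 h in parental cells, a direction that turned to 0.10 with the GC trend removed.

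The counts for lists of related genes stand beside 32.2%, 30.4% and 23.4% of all genes higher and 35.4%, 31.2% and 20.7% lower at 8, 24 and 48 h, and no difference from these shares was tested. Of 12 further adherens junction genes tested 8 rose and 2 fell at 8 h, 6 and 2 at 24 h, and 4 and 4 at 48 h. Among them CDH2, the N-cadherin of mesenchymal and neural cells, rose from 1.56, 1.41 and 1.78 CPM at 0 h to 22.2, 19.1 and 18.3 CPM at 24 h (3.65 ± 0.119 SE, BH-adjusted p = 7.17e-17). Of 18 further tight junction genes 5 rose and 9 fell at 8 h, 3 and 6 at 24 h, and 4 and 3 at 48 h. Of 20 further polarity genes 6 rose and 10 fell at 8 h, 5 and 8 at 24 h, and 4 and 6 at 48 h. LIN7B, a scaffold of the Crumbs complex, fell from 16.2, 15.3 and 17.4 CPM to 1.36, 1.85 and 1.51 CPM at 24 h (-3.38 ± 0.143 SE, BH-adjusted p = 6.77e-15). The gap junction list held connexins, which form channels between neighbouring cells, and the pannexin PANX1, which rose at each time. Of 8 listed genes 6 rose and 1 fell at 8 h, 3 and 3 at 24 h, and 3 and 1 at 48 h. GJB2, connexin 26, read 2.59, 2.74 and 2.94 CPM at 0 h and 285, 274 and 323 CPM at 8 h, a 107-fold rise (6.74 ± 0.122 SE, BH-adjusted p = 1.01e-20), and was 12.3, 11.6 and 12.5 CPM at 48 h, where parental cells at 0 h had 117, 133 and 133 CPM. Hemidesmosome genes, which anchor basal cells to the matrix, had 4 of 6 that rose and 2 that fell at 8 h, 3 and 3 at 24 h, and 1 and 3 at 48 h.

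Of 11 epithelial transcription and splicing factors tested 4 rose and 4 fell at 8 and at 24 h, and 5 rose and 3 fell at 48 h. EHF, an ETS factor of glandular epithelium, went from 23.5, 25 and 23.7 CPM at 0 h to 0.998, 0.986 and 1.55 CPM at 8 h (-4.35 ± 0.166 SE, BH-adjusted p = 9.12e-16) and was 27, 26.4 and 26.5 CPM at 48 h. ELF3, a related factor, read 5.87, 6.28 and 5.78 CPM at 0 h, 0.347, 0.248 and 0.307 CPM at 8 h and 21.3, 21.1 and 24.4 CPM at 48 h (-4.31 ± 0.25 SE, BH-adjusted p = 1.20e-12 at 8 h). GRHL3, a grainyhead factor known for barrier and junction genes, rose from 1.73, 1.36 and 1.56 CPM to 12.7, 12.6 and 15.1 CPM at 8 h (3.12 ± 0.112 SE, BH-adjusted p = 3.47e-16), below the parental 0 h level of 32.1, 39.4 and 40.2 CPM. Among 6 E-cadherin repressors 3 rose and 3 fell at 8 h, 2 and 3 at 24 h, and 2 and 3 at 48 h. SNAI2, Slug, a repressor of E-cadherin, read 203, 206 and 206 CPM at 0 h, 103, 99.8 and 102 CPM at 8 h, 45.5, 42.5 and 44.8 CPM at 24 h and 89, 90.8 and 92 CPM at 48 h (-1.18 ± 0.0409 SE, BH-adjusted p = 8.10e-16 at 48 h). Every treated replicate was below the untreated ones. SNAI1, Snail, which is named here after its values were seen, was called higher at all 3 times at a much lower level, with 0.0174, 0.068 and 0 CPM at 0 h, 1.22, 0.979 and 1.21 CPM at 8 h and 0.283, 0.112 and 0.25 CPM at 48 h.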

How the data were processed

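RNA was sequenced from 24 libraries, 3 for each of 8 groups of line and time. The deposited table holds the authors' whole-number counts per gene for 60668 genes. Per the submitters' processing notes, GRCh38, Trimmomatic 0.39, STAR and StringTie 2.1.3b were used, with roles not given in the sources used here, so the counts may be derived from coverage and limits based on counting are approximate. The members and gene lists were chosen with earlier results of these data known.

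Counts were fitted with edgeR 4.0.16 (quasi-likelihood, TMM, filterByExpr, 1 mean per group over all 24 libraries, R 4.3.3) on 22158 genes, with a common biological coefficient of variation of 0.151. P-values were adjusted by the Benjamini-Hochberg method at a threshold of 0.05. Levels per kb were divided by the length of the longest coding transcript (GENCODE release 29), 12325 bases for DSC2 and 5525 for DSG3, for example. Ranks and shares per kb depend on that choice of transcript. Values were given per sample for the largest rise and fall within each subgroup and for members called in opposite directions in the lines, and for other lists the 2 largest rises and falls per MYC-ER time among genes of at least 5 CPM in a compared group. Alternatives were DESeq2 1.42.0 (size factors and Wald test), library size alone, upper quartile, other filters, a replicate block, GC and length trends removed per library (lowess, span 0.3), the compared groups alone and leaving out each library. Between replicates, chi-square per degree of freedom was 8.45 to 260.5, above counting error alone, and all were kept as separate libraries. This does not show whether they are separate cultures.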

Additional observations from a re-analysis of the deposited data

Results flagged for a closer look

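By the interaction term of edgeR's quasi-likelihood fit, MYC-ER and parental cells responded differently to 4-OHT in 23 of the 36 members at 8 h, 25 at 24 h and 28 at 48 h. Members called in opposite directions in the lines are given here with the MYC-ER log2 change minus the parental one. At 8 h these were DSC2 (-0.93), PKP3 (1.24), EVPL (0.95), MARVELD2 (-0.98), SCRIB (0.85) and DLG1 (-0.58). At 24 h they were CDH1 (-0.74), DSP (-1.32), DSG2 (-1.58), DSG3 (-2.36), PKP3 (0.75), EVPL (0.77), MARVELD2 (-1.70), PARD3 (-0.71), PATJ (-0.75), SCRIB (0.56) and DLG1 (-0.75). At 48 h they were DSP (-0.99), DSG2 (-1.37), DSG3 (-1.59), EVPL (0.71), TJP3 (2.31), CLDN7 (0.70), MARVELD2 (-0.98), PATJ (-0.50) and LLGL2 (1.33). The count of members called in opposite directions, 6, 11 and 9, was 0, 6 and 4 with only the groups compared fitted and 3, 5 and 5 with GC and length trends removed. The share of all genes called in opposite directions was not counted. Parental calls were lost or turned in sign in 1 or both of these fits or with the GC trend removed for all 6 members at 8 h, for all but CDH1 and DSG2 at 24 h, and for all but DSG2 at 48 h. The parental sign turned for DSC2 and PKP3 at 8 h, for PKP3, SCRIB, PARD3 and PATJ at 24 h, and for DSP, EVPL, PATJ and LLGL2 at 48 h. In the fits that left out 1 library, every interaction of at least 0.5 in size at 8 and 24 h kept its call, 240 and 252 fits, while at 48 h 232 kept it and 8 lost it, 5 of them for OCLN and 3 for PKP1. OCLN at 48 h (0.75) was 0.40 without parental 0 h replicate 2. The parental 0 h libraries stood apart in their relation to GC content, and with GC and length trends removed the interactions of DSC3 (0.13) and PATJ (0.043) turned direction at 48 h.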

How the results depend on the processing

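Over all 36 members and 13 comparisons, 8604 fits under alternatives gave 7814 calls kept or still absent, 409 lost, 277 gained and 104 turned in sign, 102 of these with GC or length trends removed. For the 12 named values of genes that are no members, all 204 fits kept the call. Shares of all genes called are given for the main fit alone. The number of members called in MYC-ER cells at 48 h was 19, became 29 without GC and length trends and 31 with only the groups compared fitted. In parental cells at 8 h it was 21, and 13 with the GC trend removed, 4 with only the groups compared, and 10 to 26 when 1 library was left out. In parental cells at 24 h it was 26, fell to 17 without GC and length trends, also with the replicate block, and was 16 with only the groups compared. In parental cells at 48 h it was 25, and 15 with the GC trend removed, with both trends removed and with both and the block, and 7 with only the groups compared. The cause was not tested.

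These signs turned, and the cause was not tested. With the GC trend removed, parental PKP3 was 0.071 at 8 h and 0.13 at 24 h, SCRIB 0.17 at 24 h, and EVPL 0.021 and LLGL2 0.099 at 48 h. With GC and length trends removed, without and with the replicate block, JUP in MYC-ER cells at 24 h was 0.16 and DSC3 at 48 h 0.12. Parental PKP3 was 0.036 (with the block 0.037) and DSC2 -0.032 (with the block -0.033) at 8 h, PKP3 0.055 (0.056), PARD3 -0.078 (-0.077) and PATJ -0.13 (-0.13) at 24 h, and DSP -0.038 (-0.038) and PATJ -0.145 (-0.145) at 48 h. The interactions at 48 h of DSC3 and PATJ were 0.13 and 0.043.

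Replicate numbers did not pair the libraries: of 84 same-numbered pairs none correlated above 0.1 (r -0.078 to 0.094), and 10 of 24 libraries correlated best with their own number. With the replicate block, 31, 26 and 19 members were called in MYC-ER cells at 8, 24 and 48 h, and 22, 26 and 25 in parental cells. Depth limits OCLN, CGN, CLDN4, PKP1 and TJP3, which lie at a few CPM or below.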
